A study of Homo sapiens with 6 samples.

Results

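Latexin (*LXN*), the retinoic acid receptor responders *RARRES1* and *RARRES2*, the retinoic acid synthesis enzymes *ALDH1A1* and *ALDH1A3*, the short-chain reductase *DHRS3*, the binding protein *CRABP2* and the receptors *RARA*, *RARB* and *RARG* were followed in MRC5 cells. These 10 genes were found by matching the identifiers of the deposited count table to GENCODE symbols, and they are 10 of 58676 gene identifiers, of which 19072 had at least 10 counts summed over the 6 libraries and were tested. All 10 were among the 19072, and *RARB*, with 17 counts in all, was the only member near that limit. The genes were chosen by symbol from a list proposed with the fold changes and adjusted p values of this same comparison known, so their changes are a description of these libraries and not an independent test.

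The libraries are polyA RNA of MRC5 cells, a single line of human lung fibroblasts, grown in DMEM with fetal bovine serum. In 3 libraries (control ATII CM) the fibroblasts were kept for 24 h in conditioned medium (CM) of untreated ATII ER:KRASV12 cells, a human alveolar type II line that carries a RAS protein switched on by 4-hydroxytamoxifen (4-OHT). In the other 3 (4-OHT ATII CM) the medium came from the same epithelial line after 24 h of 4-OHT, so that both groups received epithelial medium and differed in whether its source cells had activated RAS. The comparison asks how lung fibroblasts respond to signals from RAS-activated epithelial cells. Whether the collected medium still held 4-OHT is not given in the sources used here, and secreted factors and carried-over 4-OHT cannot be told apart by this design. The labels do not say that the 3 libraries of a group came from separate cultures, so p values measure the spread between these libraries, which may be technical.

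Retinol, taken up from the blood, is oxidized first to retinal and then to retinoic acid. Enzymes of the *ALDH1A* family carry out the second step, *DHRS3* turns retinal back into retinol, and CYP26 hydroxylases degrade retinoic acid. CRABP2 hands retinoic acid to nuclear receptors (RARA, RARB and RARG), which sit with a retinoid X receptor on paired hexamers in the DNA and switch on genes that include *RARB*, *DHRS3* and the *CYP26* genes themselves. Latexin is a cytosolic inhibitor of carboxypeptidases of the A type, and *RARRES1*, first described as a tazarotene-induced gene, encodes a related membrane protein. *RARRES2* encodes the precursor of chemerin, a secreted chemoattractant and adipokine. In the developing lung, retinoic acid made by mesenchymal cells acts in bud formation and alveolar growth.

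Library totals were between 17691849 and 26389449 counts, with a median of 22273931, and the library with the fewest counts was control ATII CM replicate 2. That library stood apart on the second principal component, which held 23.3% of the variance, while the first held 43.4% and separated the groups. The 9 fibroblast markers were all detected, with levels that summed to 41020 to 44535 counts scaled to the common library size (CPM) in control ATII CM and 42888 to 44629 CPM in 4-OHT ATII CM, and 4 of them were higher (*COL3A1*, *PDGFRA*, *LUM* and *DCN*) and 1 lower (*VIM*) by the test used below. Of 10 epithelial and ATII markers 5 were tested and none was called by edgeR, DESeq2 or limma-voom, with 0 at an unadjusted p below 0.05. Their summed level was 91.3 to 97.2 CPM in control ATII CM and 88.9 to 95.1 CPM in 4-OHT ATII CM. The 5 markers below the count limit were *SFTPA1* and *NKX2-1*, with no count, *SFTPB* and *SFTPC*, with 1 count each, and *CDH1*, with 4. The 5 tested were *EPCAM*, *KRT8*, *KRT18*, *KRT19* and *CLDN4*, and nearly all of the summed level came from them. Of 7 leukocyte and endothelial markers only *VWF* was tested, it was not called, and *CD3E*, *PECAM1* and *CDH5* had no count.

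Because *LXN* and *RARRES1* lie near each other and both rose, the sequences before their start sites are shown first, from RefSeq on GRCh38.p14, outside annotated exons and on the strand of the gene. The *LXN* stretch is chr3:158672649-158672898, minus strand, and ends at position -1 from the start site. The *RARRES1* stretch is chr3:158732529-158732707, minus strand, and ends at position -72, since exons of *MFSD1* and *RARRES1* cover the rest.
LXN: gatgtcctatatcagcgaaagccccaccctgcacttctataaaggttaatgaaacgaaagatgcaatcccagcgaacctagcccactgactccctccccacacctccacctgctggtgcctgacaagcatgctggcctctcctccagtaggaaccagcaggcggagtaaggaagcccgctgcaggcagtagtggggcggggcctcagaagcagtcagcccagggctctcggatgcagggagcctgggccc
RARRES1: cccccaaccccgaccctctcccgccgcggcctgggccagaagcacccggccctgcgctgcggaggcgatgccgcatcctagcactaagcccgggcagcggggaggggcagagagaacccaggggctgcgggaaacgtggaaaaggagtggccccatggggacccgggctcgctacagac
The hexamer AGGTCA, which RAR and RXR proteins are known to bind, and its variants with G at the first base (GGGTCA), with T at base 3 (AGTTCA) or with both changes (GGTTCA) were searched on both strands of windows of 300 bases, 250 before and 50 after each start site. RefSeq gave 17 such windows for the 10 members, and 8 of them, in 5 members, held at least 1 hexamer. These members were *RARRES2* and *DHRS3*, which rose, and *CRABP2*, *RARA* and *RARB*, which were not called. No hexamer was in the windows of *LXN* or *RARRES1*. Of all 35116 windows 38.6% held one, so its presence or absence in a member is ordinary. Direct repeats of the hexamer with a spacer of 5 bases, the classical receptor element, were in 0.0883% of all windows, those with 1 base in 0.131% and those with 2 bases in 0.0399%.

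For *DHRS3*, which rose, the stretch before its second start site (chr1:12616796-12617039, minus strand) is printed with the matching hexamer in capitals, which begins at position -172 from the start. For *RARRES2*, which also rose, 24 bases (chr7:150341817-150341840, minus strand) show a pair of adjoining hexamers in capitals, at positions -205 to -194 from the start. Hexamers without a spacer between them were not among the repeats counted over all windows. For *RARB*, which was barely detected, 29 bases (chr3:25428204-25428232, plus strand) show the only direct repeat with a spacer of 5 found in a member, in capitals from the first to the last base of the repeat, at positions -53 to -37 from the start. The *RARRES2* and *RARB* stretches, unlike the others, lie within annotated exons, the first in one of ENSG00000261305 on the other strand and the second in 5′ untranslated exon sequence of longer *RARB* transcripts.
DHRS3: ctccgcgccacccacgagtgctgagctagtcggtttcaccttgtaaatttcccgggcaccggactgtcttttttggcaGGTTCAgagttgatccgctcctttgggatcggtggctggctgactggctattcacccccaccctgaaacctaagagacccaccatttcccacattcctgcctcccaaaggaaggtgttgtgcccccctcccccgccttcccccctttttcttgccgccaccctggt
RARRES2: cggccaGGGTCAGGGTCAtgaggg
RARB: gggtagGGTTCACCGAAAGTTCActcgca
A match is a match of letters only, and nothing about receptor binding at these genes follows from it.

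Counts were compared with the edgeR quasi-likelihood test with Benjamini-Hochberg adjustment over the 19072 genes, and a gene is said to rise or fall where its adjusted p was below 0.05. By this test 5.72% of all genes tested were called, 2.95% higher and 2.76% lower in 4-OHT ATII CM. Of the 10 members 4 rose (*LXN*, *RARRES1*, *RARRES2* and *DHRS3*), 0 fell and 6 were not called. At an unadjusted p below 0.05 there were also 4, and DESeq2 and limma-voom each called 4. The groups did not overlap in the 4 members that rose and overlapped in the other 6, against 22.1% of all genes whose groups did not overlap and 11.7% that did not overlap and were higher. The median log2 fold change of the members was 0.35, and that of all genes tested -0.0020. Levels of a member are given as CPM with TMM-normalized library sizes, and levels of different genes are compared as FPKM, which also divides by the length of the merged exons. In bulk libraries a change in the share of cells that express a gene and a change in RNA per cell cannot be told apart.

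**Figure D1:**
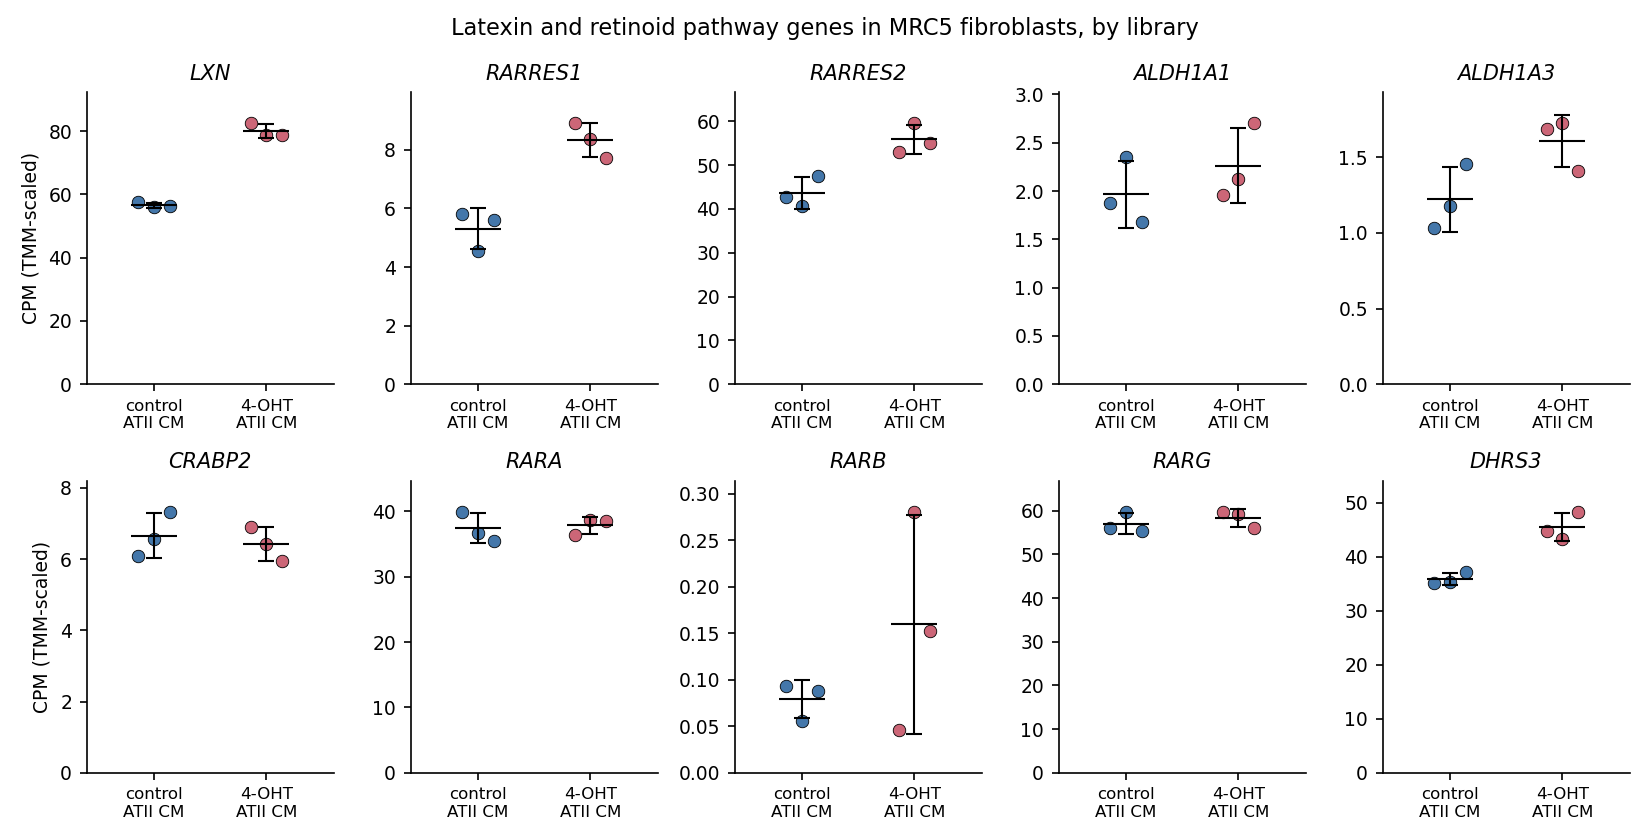
Level of each of the 10 members in CPM (linear axes that start at 0) in the 3 control ATII CM and the 3 4-OHT ATII CM libraries, with the group means and their SD. *LXN*, *RARRES1*, *RARRES2* and *DHRS3* separate without overlap, from 56.6 to 80.0 CPM for *LXN*, whereas the groups overlap for the receptors *RARA* and *RARG*.

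*LXN* (ENSG00000079257, chr3:158645822-158672693, minus strand) was the member with the smallest p, eighth of all genes. Its level was 57.5, 56.0 and 56.3 CPM in replicates 1 to 3 of control ATII CM and 82.4, 78.6 and 78.9 CPM in those of 4-OHT ATII CM. The lowest 4-OHT library thus stood well above the highest control library, and the control libraries lay within a narrow band. The mean went from 56.6 ± 0.794 to 80.0 ± 2.14 CPM (SD, n = 3), an increase of 41.1%, with a log2 fold change of 0.50 (SE 0.0388, edgeR adjusted p = 2.99e-06). Per length it was the most abundant member, at 37.7 FPKM in control ATII CM and 53.2 FPKM in 4-OHT ATII CM, and it stood at percentile 95.5 of all genes tested.

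*RARRES1* (ENSG00000118849, chr3:158696892-158732696, minus strand) lies on the same strand as *LXN*, with a gap of 24199 bases between the gene bodies. Control libraries had 5.81, 4.54 and 5.6 CPM and 4-OHT libraries 8.91, 8.38 and 7.72 CPM. All 3 4-OHT libraries were above all 3 controls, and the lowest value was that of control replicate 2. The mean rose from 5.32 ± 0.684 to 8.34 ± 0.593 CPM (SD, n = 3), by 55.6%, with a log2 fold change of 0.64 (SE 0.116, edgeR adjusted p = 0.00348). It was the only member with a change of at least 1.5-fold that was also called. Of its exons 14.8% overlap those of *MFSD1* and 11.9% those of ENSG00000240207, both on the other strand, and whether the counting used strand is not given in the sources used here. *MFSD1* itself had a log2 fold change of 0.02 (edgeR adjusted p = 0.845).

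The ratio of *LXN* to *RARRES1*, per length, was 14.7, 18.4 and 14.9 in the control libraries, against 13.8, 13.9 and 15.2 in the 4-OHT libraries. The highest ratio was that of control replicate 2, and the groups overlapped.

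*RARRES2* (ENSG00000106538, chr7:150338317-150341674, minus strand), the chemerin gene, was measured at 42.7, 40.6 and 47.6 CPM in control ATII CM. The 4-OHT ATII CM libraries had 53.0, 59.5 and 55.1 CPM, and none of them reached down to the highest control. The mean rose from 43.6 ± 3.57 to 55.9 ± 3.33 CPM (SD, n = 3), by 27.9%, with a log2 fold change of 0.35 (SE 0.0577, edgeR adjusted p = 0.00146). Per length it was the second most abundant member, at 22.7 and 29.1 FPKM.

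The receptors that bind chemerin were much less abundant per length, with *CMKLR2* the highest of them at 0.650 FPKM in control ATII CM. *CMKLR2* had 1.97, 1.40 and 2.16 CPM in control ATII CM and 1.10, 1.04 and 1.52 CPM in 4-OHT ATII CM, with a log2 fold change of -0.60 (95% interval -1.10 to -0.09, edgeR adjusted p = 0.187). *CMKLR1*, the signaling receptor, had means of 0.391 ± 0.125 and 0.481 ± 0.231 CPM (SD, n = 3). *CCRL2*, which binds chemerin without signaling, had means of 0.142 ± 0.0686 and 0.261 ± 0.0879 CPM (SD, n = 3). None of the 3 was called by edgeR, DESeq2 or limma-voom, 1 had an unadjusted p below 0.05, and all 3 had overlapping groups.

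*DHRS3* (ENSG00000162496, chr1:12567910-12617731, minus strand), which returns retinal to retinol and is itself a known target of retinoic acid, had 35.2, 35.3 and 37.2 CPM in control ATII CM. In 4-OHT ATII CM the values were 44.9, 43.4 and 48.4 CPM. The gap between the groups was wider than the range within either of them. The mean rose from 35.9 ± 1.11 to 45.5 ± 2.55 CPM (SD, n = 3), by 26.7%, with a log2 fold change of 0.34 (SE 0.0511, edgeR adjusted p = 0.000717). Per length it followed *LXN* and *RARRES2*, at 11.8 FPKM in control ATII CM.

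The enzymes that make retinoic acid were less abundant per length, at 0.691 FPKM for *ALDH1A1* and 0.212 FPKM for *ALDH1A3* in control ATII CM. *ALDH1A1* (ENSG00000165092, chr9:72900662-73080442, minus strand) had 1.87, 2.35 and 1.68 CPM in control ATII CM and 1.96, 2.13 and 2.70 CPM in 4-OHT ATII CM. With groups that overlapped, *ALDH1A1* had a log2 fold change of 0.22 (95% interval -0.21 to 0.65, edgeR adjusted p = 0.647). *ALDH1A3* (ENSG00000184254, chr15:100877714-100916626, plus strand) had 1.03, 1.18 and 1.46 CPM in control ATII CM and 1.69, 1.72 and 1.41 CPM in 4-OHT ATII CM. It was higher in 2 of the 3 4-OHT libraries than in any control, with a log2 fold change of 0.39 (95% interval -0.09 to 0.87, edgeR adjusted p = 0.424). Its exons share 27.5% of their length with *ALDH1A3-AS1*, so that without strand the reads of both cannot be separated. The intervals of both enzymes include changes as large as that of *LXN*, and with 21 to 71 counts per library such changes could not be resolved.

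*CRABP2* (ENSG00000143320, chr1:156699606-156705816, minus strand), the carrier of retinoic acid to the receptors, was measured at 6.09, 6.55 and 7.32 CPM in control ATII CM and 6.90, 6.42 and 5.94 CPM in 4-OHT ATII CM. It was the only member with a lower mean in 4-OHT ATII CM, by a log2 fold change of -0.06 (95% interval -0.30 to 0.18, edgeR adjusted p = 0.861). The groups overlapped throughout, and leaving out control ATII CM replicate 3 gave a value of 0.02.

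Among the receptors, *RARA* (ENSG00000131759, chr17:40309192-40357643, plus strand) had 39.9, 36.7 and 35.5 CPM in control ATII CM and 36.3, 38.7 and 38.5 CPM in 4-OHT ATII CM. *RARG* (ENSG00000172819, chr12:53210567-53232980, minus strand) had 55.9, 59.7 and 55.3 CPM, and 59.7, 59.3 and 56.0 CPM. Both sets of values overlapped between the media, and 11.8% of the exon length of *RARA* is shared with *RARA-AS1*. The log2 fold change of *RARA* was 0.02 (95% interval -0.09 to 0.13, edgeR adjusted p = 0.913), and it was -0.03 without control ATII CM replicate 3. The log2 fold change of *RARG* was 0.03 (95% interval -0.06 to 0.13, edgeR adjusted p = 0.766). For these well-measured receptors the intervals exclude a change of the size seen in *LXN*.

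*RARB* (ENSG00000077092, chr3:25174332-25597932, plus strand), the receptor gene that retinoic acid is known to induce in many cells, had 2, 1 and 2 counts in control ATII CM and 1, 7 and 4 counts in 4-OHT ATII CM. Such counts span overlapping ranges, and the log2 fold change of 0.97 had a 95% interval of -0.73 to 2.66 (edgeR adjusted p = 0.601). With so few counts, a change in either direction within that interval could not be resolved. Per length, *RARG* made up 56.3 to 60.2% of the receptor signal in the 6 libraries, *RARA* 39.7 to 43.6% and *RARB* 0.0639 to 0.383%. *RARG* was thus the more abundant receptor in every library, and the shares overlapped between the groups.

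By mean FPKM over the 6 libraries the members stood in the order *LXN* (45.4), *RARRES2* (25.9), *DHRS3* (13.4), *RARG* (11.2), *RARA* (7.95), *CRABP2* (5.94), *RARRES1* (3.05), *ALDH1A1* (0.743), *ALDH1A3* (0.245) and *RARB* (0.0323). The neighbours *DHRS3* and *RARG* overlapped in control ATII CM, at 11.8 ± 0.365 and 11.1 ± 0.466 FPKM (SD, n = 3), and stood apart in 4-OHT ATII CM, at 15.0 ± 0.841 and 11.4 ± 0.394 FPKM (SD, n = 3). No other neighbours in this order overlapped within either group of libraries.

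The region around *LXN* and *RARRES1* was then read gene by gene. Within 500000 bases of either gene the table lists 20 other genes, of which 9 were tested and 0 were called by edgeR, DESeq2 or limma-voom. Of the 9, 3 had a higher and 6 a lower level in 4-OHT ATII CM, with a median log2 fold change of -0.04, and 1 had an unadjusted p below 0.05. That gene was *GFM1*, which encodes a mitochondrial elongation factor and whose exons overlap those of *LXN* by 45 bases on the other strand. *GFM1* was measured at 41.8, 41.4 and 41.1 CPM in control ATII CM and 39.1, 39.2 and 36.8 CPM in 4-OHT ATII CM. The log2 fold change of *GFM1* was -0.11 (95% interval -0.21 to -0.01, edgeR adjusted p = 0.205), the opposite sign to *LXN*.

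*MFSD1*, which encodes a lysosomal transporter and shares exon sequence with *RARRES1*, had means of 77.5 ± 1.34 and 78.8 ± 2.44 CPM (SD, n = 3). *MLF1* had a log2 fold change of -0.03, *RSRC1* of -0.08 and *IQCJ-SCHIP1* of -0.19, none of them called. The interval of *MFSD1*, -0.06 to 0.10, lies wholly below that of *RARRES1*, 0.39 to 0.89.

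**Figure D2:**
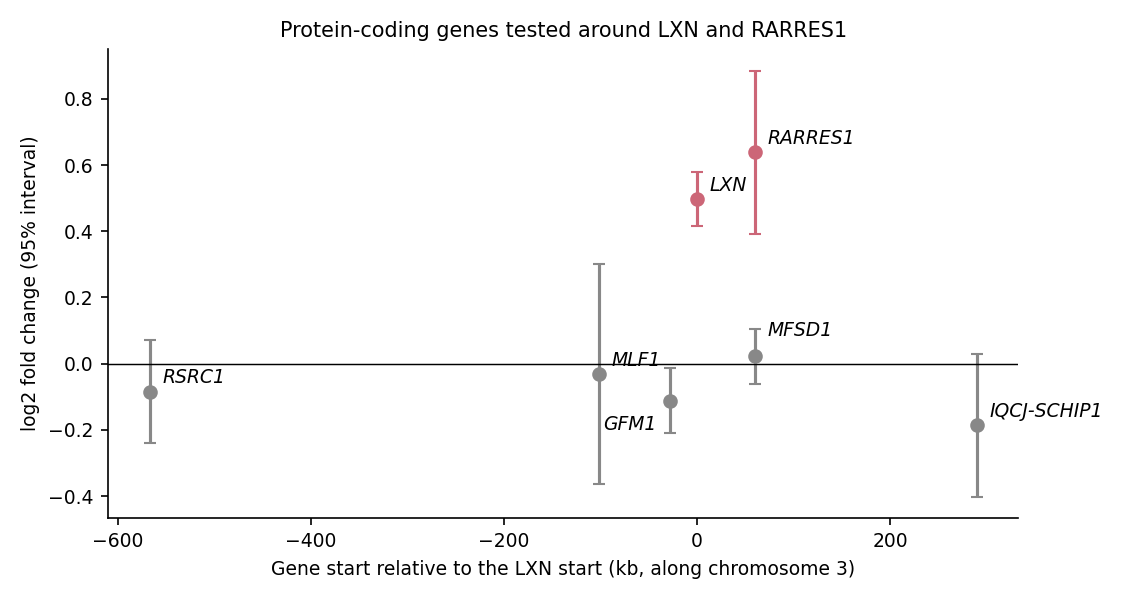
Log2 fold change (4-OHT ATII CM against control ATII CM, vertical axis) of the tested protein-coding genes around *LXN* by the distance of their start from that of *LXN* in kb (horizontal axis), with 95% intervals. Other tested genes of the region are not drawn. *LXN* at 0.50 and *RARRES1* at 0.64, with starts 60.0 kb apart, are the called genes of the region, and the interval of *MFSD1*, at 59.5 kb, includes 0.

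The rest of the retinoid pathway was read from a list of 57 other genes, of which 39 were tested, 18 fell below the count limit and 8 had no count at all. Of the 39, 9 rose and 1 fell, against 2.95% and 2.76% of all genes, and 23 had a higher and 16 a lower level. Their median change on the log2 scale was 0.04. DESeq2 called 9 of them and limma-voom 10, and 13 had an unadjusted p below 0.05.

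Of 13 genes of retinoid uptake, storage and transport 7 were tested. The 3 most abundant by FPKM were not called: *DGAT1*, which can esterify retinol, at 0.04, *SCARB1*, a carotenoid and lipoprotein receptor, at 0.07, and *FABP5*, a fatty acid carrier that also binds retinoic acid, at -0.31 on the log2 scale.

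Of 19 enzymes that oxidize retinol or reduce retinal, 11 were tested, 3 rose and 0 fell. *RDH10*, the main retinol dehydrogenase of embryonic retinoic acid synthesis, had 95, 94.1 and 89.9 CPM in control ATII CM and 114, 116 and 115 CPM in 4-OHT ATII CM. The log2 fold change of *RDH10* was 0.30 (SE 0.0372, edgeR adjusted p = 0.00015). *ADH1B*, an alcohol dehydrogenase that accepts retinol, rose from 14.8 ± 0.939 to 22.3 ± 1.54 CPM (SD, n = 3), with a log2 fold change of 0.59 (edgeR adjusted p = 0.000216). *ADH1B* closely resembles *ADH1A* and *ADH1C* in sequence, and how reads mapping to several places were counted is not given in the sources used here. *ADH5* went from 277 ± 2.21 to 301 ± 5.90 CPM (SD, n = 3), with a log2 fold change of 0.12 (edgeR adjusted p = 0.0397), a call lost in 6 of the 13 alternatives (highest adjusted p = 0.186, without control ATII CM replicate 3). *RDH11* was not called, at 0.03. Both the enzyme *RDH10*, which forms retinal, and the member *DHRS3*, which removes it, were thus higher in the 4-OHT medium.

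Of 3 hydroxylases that degrade retinoic acid, *CYP26A1* had no count in any library, which over 135093001 counts allows a level of up to 0.0222 CPM. This limit covers counting error only. *CYP26B1* had 2.20, 1.51 and 2.03 CPM in control ATII CM and 2.42, 2.61 and 3.01 CPM in 4-OHT ATII CM. All 3 4-OHT libraries were above the controls, but with a log2 fold change of 0.48 (95% interval 0.07 to 0.88) the gene was not called (edgeR adjusted p = 0.186). *CYP26C1* was close to 0 in all libraries, at 0.119 ± 0.113 and 0.110 ± 0.0286 CPM (SD, n = 3).

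Of 10 retinoid X receptors and coregulators 8 were tested. *RXRA*, the partner of the retinoic acid receptors, rose from 104 ± 3.97 to 121 ± 1.18 CPM (SD, n = 3), with a log2 fold change of 0.22 (edgeR adjusted p = 0.00276). The corepressor *NCOR1* was not called, at -0.11 (edgeR adjusted p = 0.16), and was called without control ATII CM replicate 2 (adjusted p = 0.00494).

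Of 18 further genes that retinoic acid is known to induce in some cells 15 were tested, 5 rose, 0 fell and 10 were not called. By sign alone 9 had a higher and 6 a lower level in 4-OHT ATII CM. *TGM2*, a transglutaminase that cross-links matrix proteins, had 246, 252 and 249 CPM in control ATII CM and 322, 328 and 326 CPM in 4-OHT ATII CM. The libraries of *TGM2* were tight within each group, and its log2 fold change was 0.38 (SE 0.0312, edgeR adjusted p = 4.19e-06). *PLAAT4*, also named *RARRES3*, rose from 8.53 ± 0.474 to 12 ± 1.73 CPM (SD, n = 3), with a log2 fold change of 0.50 (edgeR adjusted p = 0.00923). The nuclear receptor *NR2F1* rose by 0.30 (edgeR adjusted p = 0.00024) and the growth factor *MDK* by 0.16 (edgeR adjusted p = 0.0313) on the log2 scale. The call of *MDK* was lost in 6 of the 13 alternatives (highest adjusted p = 0.181) and that of *PLAAT4* in 3 (highest adjusted p = 0.0627), both highest without 4-OHT ATII CM replicate 2. Exons of *TGM2* share 4.90% of their length with *RPRD1B* and those of *NR2F1* 3.66% with *NR2F1-AS1*, both on the other strand. The member *RARB* and the list gene *CYP26A1*, both widely used as markers of retinoic acid signaling, were at 17 and 0 counts over all libraries, and *CYP26A1* is named here because of its values.

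**Figure D3:**
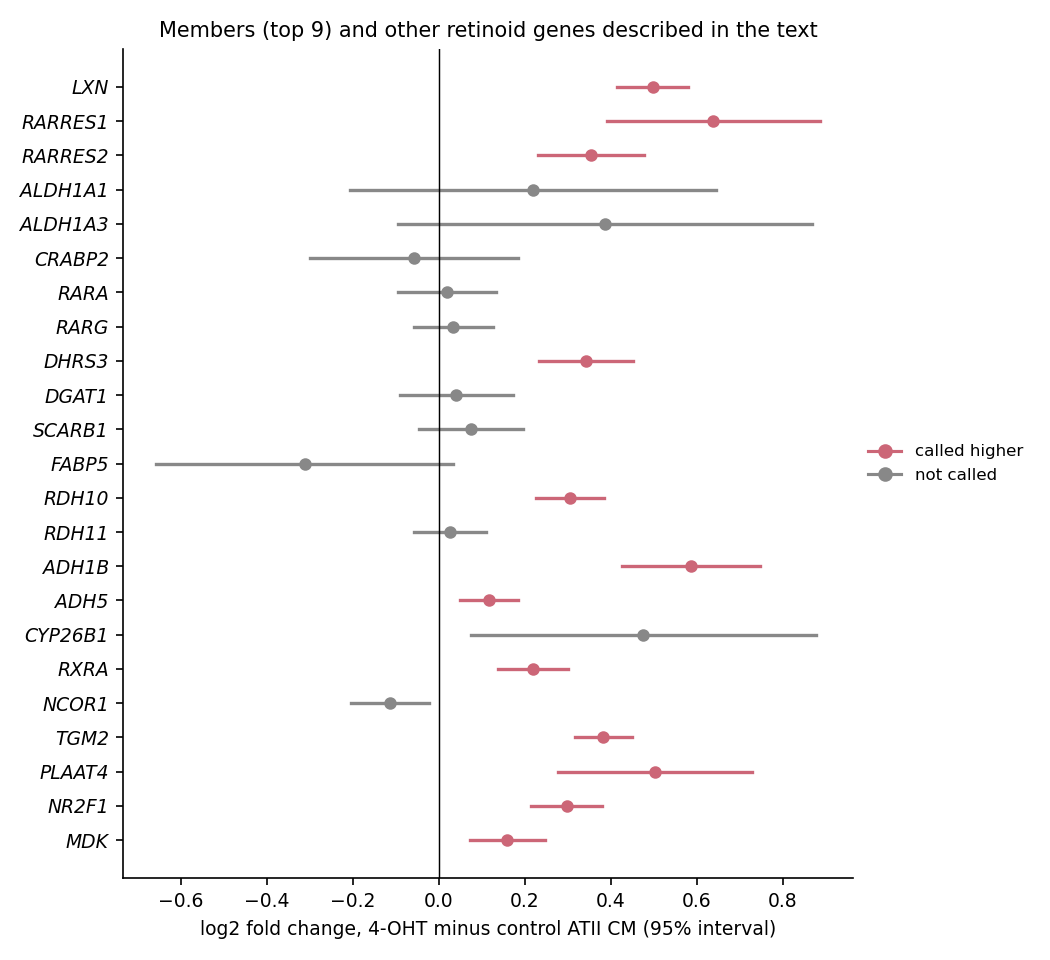
Log2 fold change (4-OHT ATII CM against control ATII CM) with 95% intervals of 9 members (upper rows, *RARB* left out for its low counts) and of 14 other retinoid genes described in the text (lower rows), with genes called higher in red and others in grey. Called changes run from 0.12 for *ADH5* to 0.64 for *RARRES1*, and the receptors *RARA* and *RARG* sit at 0.02 and 0.03.

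Since latexin binds metallocarboxypeptidases, the 23 genes of the M14 family were read beside it. Of these 15 were tested, 2 rose and 1 fell, against 2.95% and 2.76% of all genes. In this family 6 had an unadjusted p below 0.05, as had 3306 of the 19072 genes tested, and DESeq2 and limma-voom each called 3. *CPA4*, a secreted carboxypeptidase of the A type that latexin is known to inhibit, had 37.9, 43.5 and 44.7 CPM in control ATII CM. In 4-OHT ATII CM it had 26.1, 27.6 and 25.3 CPM, all below the lowest control. The mean fell from 42.0 ± 3.63 to 26.3 ± 1.17 CPM (SD, n = 3), with a log2 fold change of -0.67 (SE 0.0633, edgeR adjusted p = 1.68e-05), so that the inhibitor's transcript was higher and that of this enzyme lower in the same libraries. The other *CPA* genes tested had few counts and were not called. On the log2 scale *CPA6* was at 0.81 (77 counts in all), *CPA3* at -1.35 (10 counts) and *CPA5* at -0.90 (21 counts).

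The other called and the most abundant genes of the family lie outside the A type. *CPE*, which trims peptide hormones, rose from 23.7 ± 0.412 to 28.6 ± 0.168 CPM (SD, n = 3), with a log2 fold change of 0.27 (edgeR adjusted p = 0.00578). *CPXM1*, a relative thought to lack catalytic activity, rose by 0.37 on the log2 scale (edgeR adjusted p = 0.00831), a call lost without 4-OHT ATII CM replicate 2 (adjusted p = 0.0599). *AEBP1*, a collagen-binding protein and the most abundant of the family at 65.7 ± 0.556 and 65.2 ± 0.413 FPKM (SD, n = 3), was not called, and neither was the membrane enzyme *CPD* at -0.08 on the log2 scale. Without control ATII CM replicate 2 *CPD* was called, at -0.14 (adjusted p = 0.00660).

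**Figure D4:**
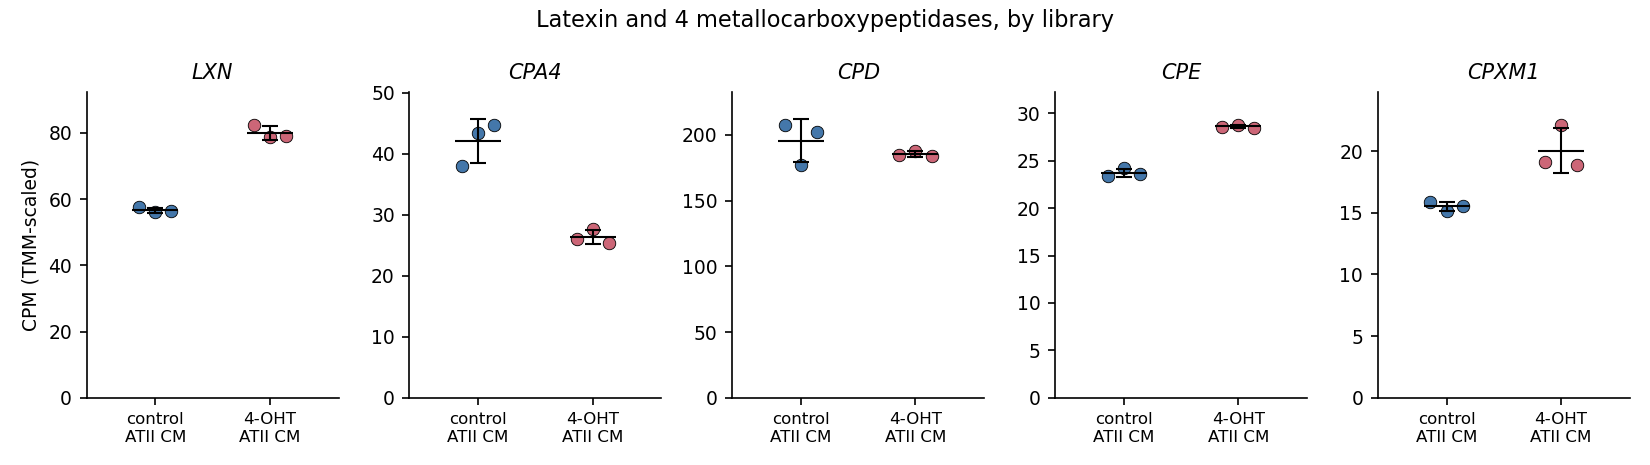
Level in CPM (linear axes that start at 0) of *LXN* and of the carboxypeptidase genes *CPA4*, *CPD*, *CPE* and *CPXM1* in each of the 6 libraries. *CPA4* moves opposite to *LXN*, from a mean of 42.0 to 26.3 CPM, and the groups of *CPD* overlap.

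Likeness to *LXN* was described by Pearson's r of log2 CPM over the 6 libraries, among 9201 genes with a mean of at least 10 CPM. The 6 points share their libraries and their group difference, and 3.09% of those genes had an r of at least 0.95. The genes most like *LXN* were *CCNI* (r = 0.998), *ITM2B* (0.997), *TNFRSF11B* (0.997), *QPRT* (0.997) and *TIPARP* (0.996). Among them *TIPARP* had a log2 fold change of 0.32, *QPRT* of 0.38 and *CCNI* of 0.10, the last not called (edgeR adjusted p = 0.0629). *CCNI* was called in 4 of the 13 alternatives, which were DESeq2, limma-voom, no filter beyond 1 count and leaving out control ATII CM replicate 2. Of the members, which were compared whatever their level, *RARRES1* had an r of 0.951 with *LXN*, *DHRS3* 0.945, *RARRES2* 0.884 and *ALDH1A3* 0.752. The value was 0.353 for *RARG* and 0.150 for *RARA*, and *CRABP2* followed *LXN* least, with an r of -0.229.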

How the data were processed

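RNA-Seq was performed on 6 libraries of MRC5 cells, 3 per group, and the groups were taken from the sample labels. The authors used Trim Galore for trimming of the paired-end reads, HISAT2 2.1.0 for alignment to GRCh38 and featureCounts 1.6.5 for counting, and the deposited values are raw counts per gene. The kit is not described as stranded. The annotation release, the strand setting and the treatment of reads with several mapping places are not given in the sources used here.

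Of 58676 identifiers, 45 were listed on both X and Y and their counts were summed. The 19072 genes whose counts summed to 10 or more went into edgeR 4.0.16 (R 4.3.3) on TMM-normalized counts with the quasi-likelihood test, group as the only term, and Benjamini-Hochberg adjustment over all of them at 0.05. Intervals are 95% intervals of the fitted log2 fold change. The square root of the common dispersion was 4.36%. Chi-square values between replicates, 2.12 to 6.03 per degree of freedom, showed none to be a copy of another. Symbols came from GENCODE 44. Positions are those of the deposited table, and promoter windows came from RefSeq on GRCh38.p14. No member had a copy on an alternate contig (minimap2 2.31, at least 90% of the transcript at 98% identity).

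Genes named were every member, every called gene of the retinoid, chemerin receptor and carboxypeptidase lists with the 3 most abundant per list by FPKM, tested protein-coding genes within 500000 bases of *LXN* or *RARRES1*, and the 5 genes most like *LXN*. The other tested *CPA* genes are given beside *CPA4*. Members and lists were chosen with earlier results of these data known. Results of some list genes are not reported here, although the counts of the whole retinoid list include them. No test was made over a list. The fitting scripts were tested on simulated counts. Alternatives were DESeq2 1.42.0, limma-voom (limma 3.58.1), other size factors, other filters, thinning to the smallest library, a replicate block and leaving out each library.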

Additional observations from a re-analysis of the deposited data

How the results depend on the processing

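The 4 members that rose did so under every alternative fit, with log2 fold changes of 0.48 to 0.51 for *LXN*, 0.54 to 0.70 for *RARRES1*, 0.31 to 0.42 for *RARRES2* and 0.29 to 0.37 for *DHRS3*, and the highest adjusted p was 0.0223, for *RARRES1*. With a change of at least 1.5-fold required, 1 member, 1 higher gene of the retinoid list (*ADH1B*) and 0 lower genes of it were left. Leaving out single libraries gave 5 to 10 higher and 1 to 2 lower genes of the retinoid list, with 5 higher without 4-OHT ATII CM replicate 2 or control ATII CM replicate 3 and 2 lower without control ATII CM replicate 2. It gave 1 to 2 higher carboxypeptidase genes, 1 without 4-OHT ATII CM replicate 2, and 1 to 2 lower ones, 2 without control ATII CM replicate 2. Over all genes it gave 289 to 696 higher and 244 to 834 lower. Without a filter beyond 1 count, 875 genes were higher. Fits without 1 library assume that the smaller group varies like the other. Of the named genes, *ADH5* and *MDK* lost their call in 6 of 13 alternatives, *PLAAT4* in 3 and *CPXM1* in 1. Uncalled values that changed sign without 1 library were *CRABP2* (-0.12 to 0.015), *RARA* (-0.025 to 0.068), *DGAT1* (-0.00019 to 0.075), *RDH11* (-0.013 to 0.047), *MLF1* (-0.13 to 0.088) and *CYP26C1* (-0.64 to 0.65, and 0.45 with limma-voom). The cause was not tested. Replicate numbers did not pair the libraries, with correlations of deviations of -0.0145, -0.104 and -0.0931 between equal numbers. With the replicate number as a block, 4 members and 8 genes of the retinoid list were higher, *ADH5* was not called (adjusted p = 0.0597), and over all genes 502 were higher and 483 lower. Depth limits *RARB*, *ALDH1A1* and *ALDH1A3*.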
